A study of Mus musculus with 8 samples.

Results

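The genes described here encode the common gamma chain family of cytokine receptors and their ligands: 6 receptor chains (Il2rg, Il2rb, Il7r, Il15ra, Il21r and Crlf2), 1 kinase (Jak3) and 3 ligands (Il7, Il15 and Tslp). The list was fixed by name, with earlier results of these data known. Each of the 10 genes was found by mapping the Ensembl identifiers to mouse symbols, among 25006 identifiers in all. RNA was sequenced from tumors of 4T1, a mouse mammary carcinoma line of Balb/c origin often used to model triple-negative disease, harvested within 20 days of growth in the fat pad. Whole tumors were read, so that carcinoma and host cells contributed to each library. There were 4 groups of 2 libraries: CD95 wild-type or CD95 knockout 4T1 cells, each in NSG or in Balb/c mice.

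Wild type stands for 2 lines, parental 4T1 and 4T1 with vCas9, and the 2 knockout lines were the CRISPR/Cas9 clones 54 and 69, each derived by targeting Fas, the gene of the death receptor CD95. Replicate 1 stands for the parental line or clone 54 and replicate 2 for vCas9 or clone 69, so that the spread within a group holds differences between lines as well as between tumors. Only the knockouts are labelled as clones, and clonal origin cannot be told apart from CD95 status. Neither the age and sex of the mice nor the number of tumors per library is stated. NSG mice carry the scid mutation of Prkdc and a null allele of Il2rg on a NOD background, are without mature T, B and NK cells and keep myeloid and stromal cells. Balb/c mice are immunocompetent, and the hosts thus differed in strain background as well as in immunity. The 4T1 cells carry their own intact Il2rg in either host. The files hold 1 count per whole gene, so reads from an intact and from a mutated Il2rg copy cannot be told apart.

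The common gamma chain, encoded by Il2rg, is shared by the receptors of interleukins 2, 4, 7, 9, 15 and 21. It pairs with a cytokine-specific chain and signals through the kinase Jak3, together with Jak1, to STAT5, STAT3 or STAT6. Il2rb is the beta chain of the interleukin 2 and interleukin 15 receptors and marks NK cells and activated T cells. Il7r pairs with Il2rg to bind interleukin 7, a survival factor for lymphocytes, and with Crlf2 to bind thymic stromal lymphopoietin, the product of Tslp. Interleukin 15 is usually presented in trans by Il15ra on myeloid and stromal cells.

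The libraries held between 8.68 M and 19.7 M counts each. A count of 3, used as the detection floor, corresponded to 0.159 to 0.321 CPM (counts scaled to a common library total after TMM normalization). The floor covers counting error only. Fas, the targeted gene, stood at 33.9 and 22.6 CPM in NSG wild-type, 29.5 and 12.9 CPM in NSG knockout, 51.6 and 46.9 CPM in Balb/c wild-type and 27.1 and 33.7 CPM in Balb/c knockout tumors. The NSG groups overlapped, and knockout status here rests on the labels. Epithelial markers, which should mark the carcinoma cells, were read in every library, with 569 to 2848 CPM summed over 5 genes. T cell markers, summed over 11 genes, stood between 5.78 and 12.3 CPM in NSG tumors and between 446 and 566 CPM in Balb/c tumors. NK cell markers summed over 7 genes to 1.79 to 9.31 CPM in NSG and 145 to 271 CPM in Balb/c, and the B cell markers over 6 genes to 1.18 to 1.5 and 7.67 to 177 CPM. Ncr1, a defining NK receptor, had 0 counts in every NSG library. In bulk RNA, fewer cells of a type and less RNA per cell cannot be told apart.

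Promoter sequences are printed for 3 chains: Il2rg, higher in Balb/c in both genotypes, Il7r, which stood lowest in NSG knockout tumors, and Il15ra, whose calls depended on the setting. They are also the 3 genes with a motif match below, and no link of motif to level was tested. Of the 10 genes, 6 had a promoter in the RefSeq table (GRCm38.p6). The windows of Il21r and Crlf2, also higher in Balb/c in both genotypes, and of Jak3 had no match and are not printed. Each line gives the 250 bases before the annotated start, 5′ to 3′ on the gene's strand, with motif matches in capitals. The windows are chrX:101268256-101268505 on the minus strand for Il2rg, chr15:9529877-9530126 on the minus strand for Il7r and chr2:11705043-11705292 on the plus strand for Il15ra.
Il2rg: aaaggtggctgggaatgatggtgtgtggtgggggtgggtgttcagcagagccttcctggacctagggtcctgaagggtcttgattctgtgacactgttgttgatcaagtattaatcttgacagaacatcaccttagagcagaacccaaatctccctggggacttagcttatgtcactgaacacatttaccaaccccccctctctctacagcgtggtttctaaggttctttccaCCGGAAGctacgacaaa
Il7r: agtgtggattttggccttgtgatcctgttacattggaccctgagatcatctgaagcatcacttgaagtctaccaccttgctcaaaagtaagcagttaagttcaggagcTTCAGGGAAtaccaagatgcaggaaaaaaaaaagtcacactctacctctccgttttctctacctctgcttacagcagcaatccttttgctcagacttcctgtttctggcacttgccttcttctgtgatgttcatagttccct
Il15ra: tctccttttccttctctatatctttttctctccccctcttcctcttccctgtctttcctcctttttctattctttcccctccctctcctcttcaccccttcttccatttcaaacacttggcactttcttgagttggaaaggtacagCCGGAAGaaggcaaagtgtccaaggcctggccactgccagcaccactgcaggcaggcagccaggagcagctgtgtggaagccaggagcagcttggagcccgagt
Searched on both strands, the STAT-type motif TTCNNNGAA matched Il7r once, at -142 from the start as TTCAGGGAA, and none of the other 5 genes. It occurs in 7.02% of all 32851 promoter windows of this length. The interferon-response type motif (GAAA, any 2 bases, GAAA), found in 2.98% of windows, matched none of the 6. The ETS-type motif CCGGAAG, chosen after the sequences were seen and found in 6.91% of windows, matched Il2rg at -17 and Il15ra at -104. A second RefSeq start of Il15ra has a window of its own, not printed, in which none of the 3 motifs matched. No match overlapped another. The distal part of the Il7r window lies in the first exon of a non-coding GENCODE M21 transcript of the same gene.

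The host comparison asked how the same lines differ when grown in an immunocompetent mouse. In wild-type tumors 5 of 10 genes rose in Balb/c by edgeR's quasi-likelihood test at an adjusted p-value under 0.05, against 15.3% of all 15310 genes tested, and none fell, against 16.2%. The 5 were receptor chains, Il2rg, Il2rb, Il21r, Crlf2 and Il7r, and NSG mice carry a null allele of the first. In knockout tumors the same 5 receptor chains rose, against a background of 15.7%, and Tslp fell, against 15.4%. The median log2 fold change of the 10 genes was 0.88 in wild-type and 1.22 in knockout tumors, beside -0.08 and 0.02 over all genes tested. All 10 passed the filter on low counts. Scaling by total counts moved the median of all genes to -0.24 and -0.17, and the higher part of the genes called from 48.6% to 36.5% in wild-type and from 50.5% to 37.3% in knockout tumors. RLE size factors gave a median of 0.01 and 0.03, and 57.9% and 51.4% of called genes higher.

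**Figure D1:**
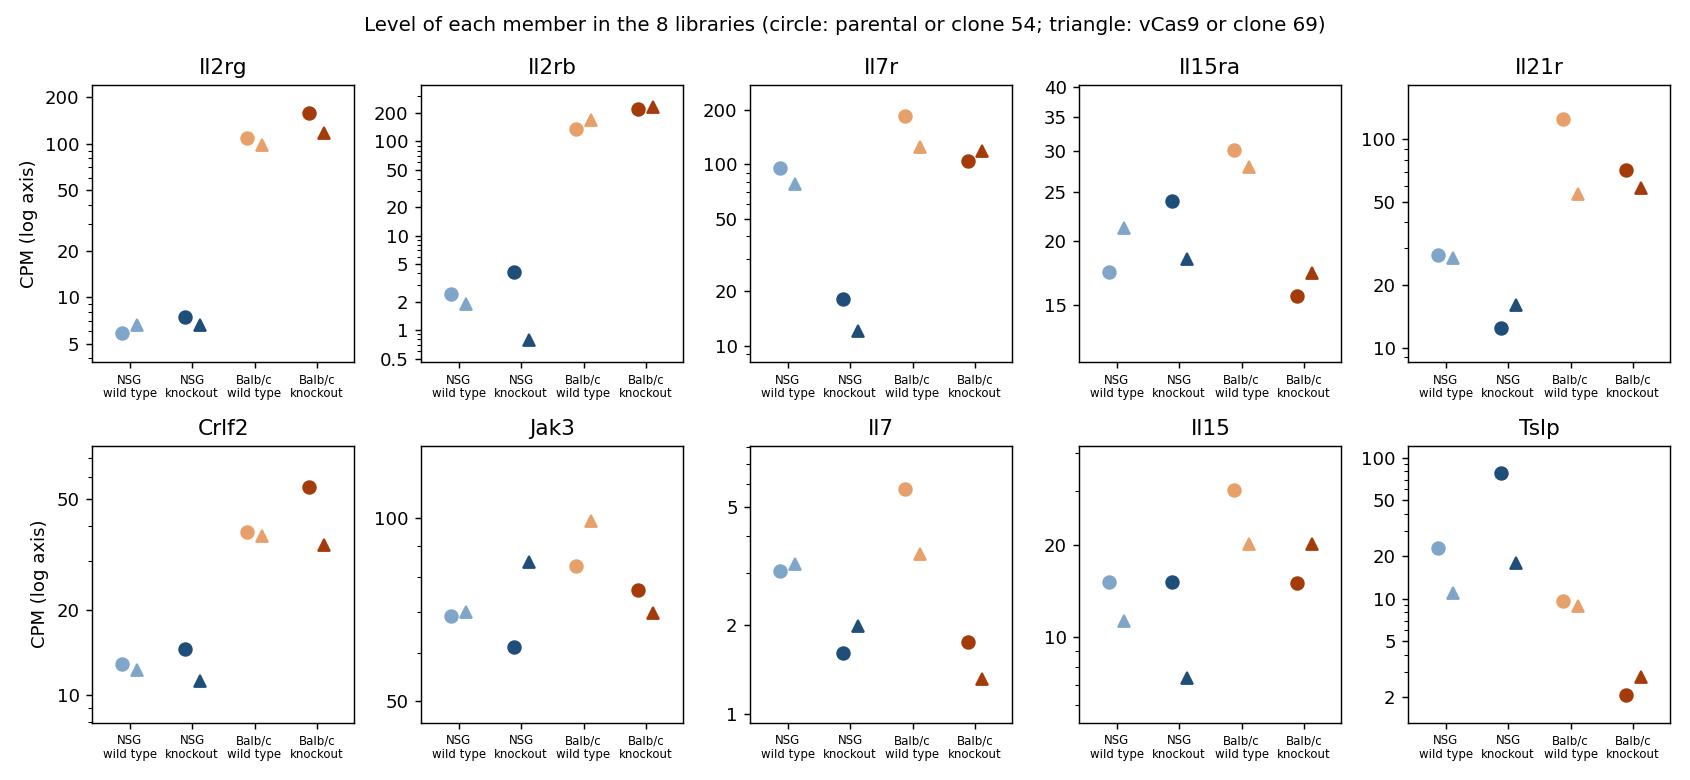
Level of each of the 10 genes in CPM on a log axis, 1 point per library, by group; circles are the parental line or clone 54 and triangles the vCas9 line or clone 69. The 4 Balb/c libraries lie above the 4 NSG libraries for Il2rg, Il2rb, Il7r, Il21r and Crlf2 and below them for Tslp.

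Il2rg (ENSMUSG00000031304; chromosome X, 101264378 to 101268255 in GRCm38, protein-coding) was at 5.82 and 6.63 CPM in NSG wild-type tumors and 7.49 and 6.56 CPM in NSG knockout tumors. In Balb/c it was at 108 and 98.3 CPM in wild-type and 157 and 117 CPM in knockout tumors. The 4 NSG libraries thus held 66 to 84 counts each, above the floor, and lay far below every Balb/c library. The host log2 fold change was 4.05 (SE 0.22, adjusted p = 0.000236 by edgeR) in wild-type tumors and 4.29 (SE 0.22, adjusted p-value 0.000186) in knockout tumors. T cell, NK cell, B cell and dendritic marker sums, and those of mast cell and eosinophil markers, rose with the same libraries. Cpa3 and Mcpt4 of the last list were lower in Balb/c. The NSG hosts also carry the null allele of Il2rg, so the allele and the lack of lymphocytes cannot be told apart. The part of the marker lists in this difference was not tested.

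Il2rb (ENSMUSG00000068227; chromosome 15, 78479256 to 78495271) showed the widest span of the 10 genes. It had 35 and 23 counts in NSG wild-type tumors (2.42 and 1.91 CPM) and 39 and 8 counts in NSG knockout tumors (4.17 and 0.796 CPM). The Balb/c libraries were at 136 and 168 CPM in wild-type and 221 and 230 CPM in knockout tumors. All Balb/c values were above all NSG values, and the clone 69 library in NSG was the lowest. The host log2 fold change was 6.12 (SE 0.54, adjusted p = 0.000837 by edgeR) in wild-type and 6.52 (SE 0.55, adjusted p-value 0.000359) in knockout tumors. Without the clone 54 library in NSG the knockout value was 8.13 (adjusted p-value 0.000983), and without that of clone 69 it was 5.75 (adjusted p-value 0.00158). In NSG the highest Il2rb value and the highest NK marker sum, 9.31 CPM, were in the clone 54 library. Eomes, named after its values were seen as was Klrk1, alone gave 7.7 CPM of that sum. Klrk1 at 1.28 CPM in this library was below the NSG wild-type libraries at 2.56 and 1.91 CPM. Ncr1 had 0 counts in every NSG library and Prf1 0 or 1, so neither sets this library apart. The part of the NK list in the Il2rb value was not tested.

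Il21r (ENSMUSG00000030745; chromosome 7, 125603429 to 125633570), the specific chain of the interleukin 21 receptor on T, B and NK cells, was at 27.9 and 26.9 CPM in NSG wild-type and 12.5 and 16.1 CPM in NSG knockout tumors. Its Balb/c values were 125 and 54.8 CPM in wild-type and 71.3 and 58.4 CPM in knockout tumors. The Balb/c wild-type lines differed by 2.28-fold, the parental line being higher, and this library also had the highest B cell and T cell marker sums, 177 and 566 CPM against 36.9 and 446 CPM in the vCas9 line. The Balb/c knockout libraries had B cell sums of 7.67 and 11.7 CPM and more Il21r than the vCas9 line, and the part of these lists was not tested. The host log2 fold change was 1.71 (SE 0.36, adjusted p = 0.0121 by edgeR) in wild-type and 2.18 (SE 0.37, adjusted p-value 0.00419) in knockout tumors. Without the parental library in Balb/c the wild-type value was 1.05 (adjusted p-value 0.0439), and without the parental or the vCas9 library in NSG the call was lost (adjusted p-values 0.0823 and 0.0792).

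Crlf2 (ENSMUSG00000033467; chromosome 5, 109554709 to 109558993), the specific chain of the Tslp receptor, was at 12.9 and 12.3 CPM in NSG wild-type, 14.6 and 11.2 CPM in NSG knockout, 37.9 and 36.7 CPM in Balb/c wild-type and 54.9 and 34.2 CPM in Balb/c knockout tumors. The Balb/c knockout tumors differed by 1.6-fold, clone 54 being higher, and no NSG library reached the lowest Balb/c library. The host log2 fold change was 1.56 (SE 0.25, adjusted p = 0.00579 by edgeR) in wild-type and 1.79 (SE 0.26, adjusted p-value 0.00227) in knockout tumors. Dendritic marker sums over 6 genes went from 88.7 to 138 CPM in NSG to 405 to 608 CPM in Balb/c. In wild-type tumors Flt3, Itgax, Ccr7 and Ciita were called higher. Xcr1 and Zbtb46, with log2 fold changes of 0.03 and -0.24, were not called. In knockout tumors Zbtb46 alone of this list was not called. Mast cell and eosinophil sums also rose, from 49.4 to 149 CPM in NSG to 293 to 589 CPM in Balb/c. Of that list, Siglecf, Ccr3 and Epx were called higher in both genotypes and Kit in wild-type tumors only. The mast cell proteases Cpa3 and Mcpt4 were called lower in Balb/c in both genotypes. The part of these lists in the Crlf2 difference was not tested. The wild-type call was lost without the parental library in NSG (adjusted p-value 0.0524).

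Il7r (ENSMUSG00000003882; chromosome 15, 9505788 to 9530176) was, of the 5 chains called, the one with the smallest host difference in wild-type tumors. It was at 95.4 and 77.9 CPM in NSG wild-type and 18 and 12.1 CPM in NSG knockout tumors. In Balb/c it had 184 and 124 CPM in wild-type and 104 and 118 CPM in knockout tumors. The NSG knockout libraries stood well below the other 6. The host log2 fold change was 0.83 (SE 0.25, adjusted p = 0.041 by edgeR) in wild-type and 2.88 (SE 0.28, adjusted p-value 0.000544) in knockout tumors. When each line served as its own replicate block the wild-type value was 0.81 with an adjusted p-value of 0.0746. Total-count scaling gave 0.67 (adjusted p-value 0.0564), and leaving out the parental or vCas9 library in NSG or the parental library in Balb/c gave 0.98, 0.69 and 0.57 (adjusted p-values 0.112, 0.202 and 0.21), so the wild-type call depends on these settings.

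Il15ra (ENSMUSG00000023206; chromosome 2, 11705290 to 11734317) was the only one of the 6 receptor chains that passed the test in neither genotype. Its host log2 fold change was 0.59 (SE 0.20, adjusted p = 0.0586 by edgeR) in wild-type and -0.37 (SE 0.20, adjusted p-value 0.204) in knockout tumors. Values were 17.4 and 21.2 CPM in NSG wild-type, 24.0 and 18.5 CPM in NSG knockout, 30.1 and 28.0 CPM in Balb/c wild-type and 15.6 and 17.3 CPM in Balb/c knockout tumors. The Balb/c wild-type tumors were the highest group and the Balb/c knockout tumors the lowest. The wild-type call was gained in 5 settings: with RLE size factors, with DESeq2, in a fit of only the groups compared, and without the clone 54 or the clone 69 library in Balb/c (adjusted p-values 0.0297 and 0.044).

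The kinase Jak3 (ENSMUSG00000031805; chromosome 8, 71676296 to 71690575), which binds the cytoplasmic tail of the common gamma chain, lay in a narrow range of 61.3 to 98.7 CPM over the 8 libraries. Its host log2 fold change was 0.39 (SE 0.19, adjusted p = 0.145 by edgeR; 95% interval -0.05 to 0.83) in wild-type tumors and 0.00 (SE 0.19, adjusted p-value 0.998; interval -0.44 to 0.44) in knockout tumors. The parental and vCas9 tumors in Balb/c, at 83.4 and 98.7 CPM, lay above those in NSG, at 68.9 and 69.9 CPM, whereas the knockout groups overlapped. Per kilobase of annotated exon, Jak3 was at 11.5 CPM or more in NSG tumors, in which Il2rg was at 3.14 CPM or less.

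Among the ligands, Tslp fell with the Balb/c host in knockout tumors. Tslp (ENSMUSG00000024379; chromosome 18, 32815383 to 32819797), an epithelial and stromal cytokine, was at 23.0 and 11 CPM in NSG wild-type and 78.0 and 17.8 CPM in NSG knockout tumors. Its Balb/c values were 9.68 and 8.87 CPM in wild-type and 2.06 and 2.77 CPM in knockout tumors. The clone 54 tumor in NSG stood apart with the highest value. The host log2 fold change was -0.88 (SE 0.63, adjusted p = 0.306 by edgeR) in wild-type and -4.31 (SE 0.72, adjusted p-value 0.00395) in knockout tumors. With 1 library left out the wild-type value ranged from -1.31 to -0.25. Without the clone 54 library in NSG the knockout value was -2.88 (adjusted p-value 0.0079), and without clone 69 in NSG it was -5.02 (adjusted p-value 0.00308). Fibroblast markers summed over 5 genes to 14410 to 27949 CPM in NSG, highest for clone 54, and 3177 to 10536 CPM in Balb/c. Epithelial sums did not separate the hosts, with 1012 to 2348 CPM in NSG and 569 to 2848 CPM in Balb/c. They were highest in the Balb/c tumor of clone 69, where Tslp was at 2.77 CPM. Of this list in knockout tumors, Krt14 was lower in Balb/c (-2.35, adjusted p = 0.0113 by edgeR). Epcam was lower without overlap (-1.37, adjusted p-value 0.19), and Krt8, Krt18 and Cdh1 overlapped. The part of both lists in the Tslp difference was not tested.

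Il15 (ENSMUSG00000031712; chromosome 8, 82331632 to 82403222) was at 15.1 and 11.3 CPM in NSG wild-type and 15.2 and 7.36 CPM in NSG knockout tumors. Balb/c values were 30.2 and 20.2 CPM in wild-type and 15.0 and 20.1 CPM in Balb/c knockout tumors. The wild-type groups did not overlap and the knockout groups did. Its host log2 fold change was 0.93 (SE 0.37, adjusted p = 0.088 by edgeR) in wild-type and 0.64 (SE 0.37, adjusted p-value 0.228) in knockout tumors. Il7 (ENSMUSG00000040329; chromosome 3, 7569994 to 7613760) was the least abundant of the 10 genes in Balb/c per kilobase, with 15 to 68 counts in the 8 libraries. Its host log2 fold change was 0.55 (SE 0.38, adjusted p-value 0.289) in wild-type and -0.23 (SE 0.41, adjusted p-value 0.714) in knockout tumors. The call for Il15 in wild-type tumors was gained with DESeq2, without the filter on low counts and in a fit of only the groups compared.

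**Figure D2:**
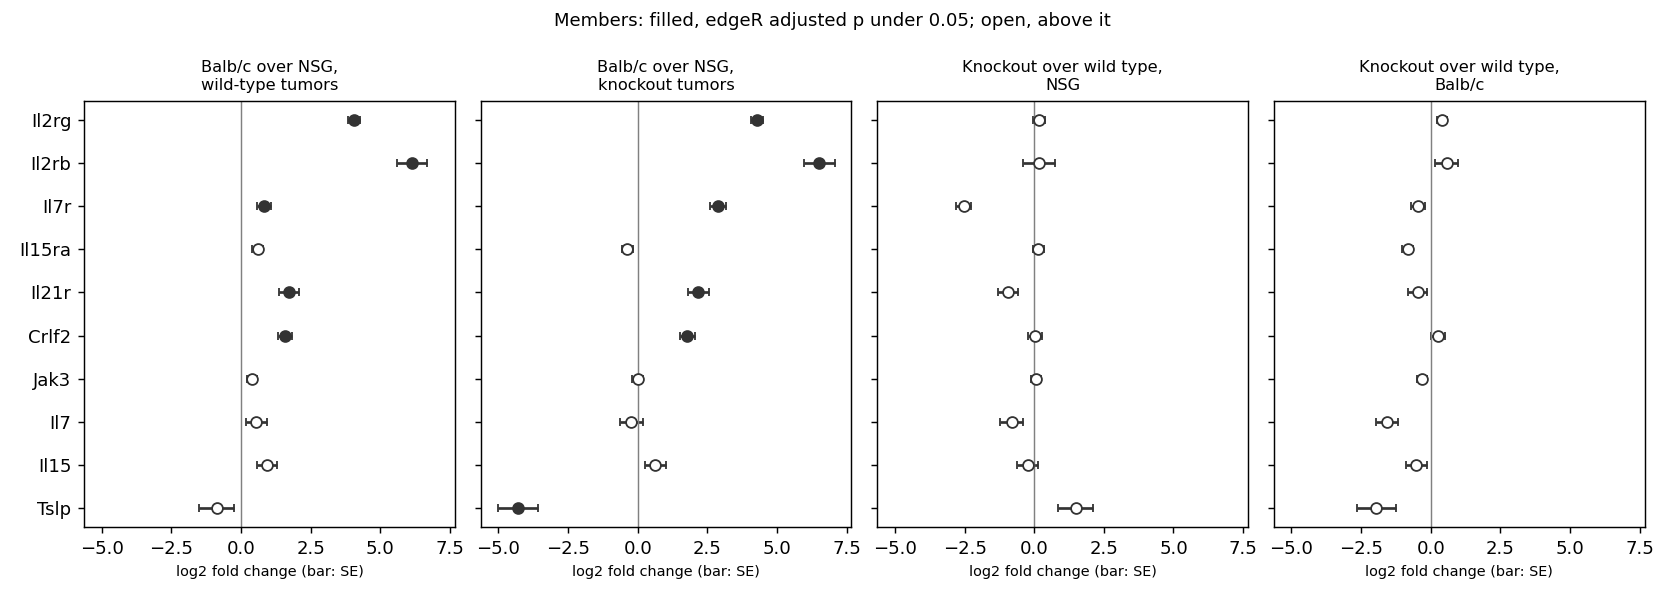
Log2 fold change with its standard error for the 10 genes in the 4 comparisons; filled points have an edgeR adjusted p-value under 0.05. Filled points appear only in the host comparisons, for 5 receptor chains in both genotypes and for Tslp in knockout tumors.

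Levels of different genes were compared as CPM per kilobase of annotated exon. In NSG wild-type tumors Il7r was highest at 18.6 ± 2.64 (SD, n = 2), above Jak3 at 13 ± 0.133. Tslp at 12.8 ± 6.36, Crlf2 at 8.46 ± 0.288 and Il21r at 8.25 ± 0.21 overlapped their neighbours. Il2rg was at 2.61 ± 0.24, and Il7 and Il2rb came last at 0.554 ± 0.0229 and 0.505 ± 0.0855, without a gap between them. In Balb/c wild-type tumors Il2rg led at 43.3 ± 3.02, followed by Il2rb at 35.5 ± 5.18, Il7r at 33 ± 9.09, Il21r at 27.1 ± 15.0 and Crlf2 at 24.9 ± 0.578, and the last 4 of these overlapped in sequence. In NSG knockout tumors Tslp was first at 36.0 ± 32.0, overlapping Jak3 at 13.6 ± 3.07, and Il7r was seventh at 3.23 ± 0.886. In Balb/c knockout tumors Il2rg at 57.6 ± 11.8 and Il2rb at 52.7 ± 1.49 overlapped and stood above Crlf2 at 29.8 ± 9.77.

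The make-up of the receptor chains shifted with these levels. In NSG tumors Il2rg made up 5.49% and 6.76% of the summed per-kilobase receptor level in wild-type and 11.7% and 12.5% in knockout tumors. It made up 24.4% to 32.7% in the 4 Balb/c libraries. Il7r made up 46.0% and 40.7% in NSG wild-type tumors, 14.4% and 11.8% in NSG knockout tumors and 11.1% to 21.2% in Balb/c. The ratio of Il2rb to Il2rg, per kilobase, was 0.0675 to 0.31 in NSG and 0.70 to 1.09 in Balb/c. Tslp exceeded or equalled its receptor chain Crlf2 in NSG, with ratios of 1 to 6.02, and was below it in Balb/c, with ratios of 0.0422 to 0.287. These shares and ratios rest on the values tested above and carry no separate test. Those with Il2rg also set its null allele in NSG hosts beside an intact one in Balb/c.

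**Figure D3:**
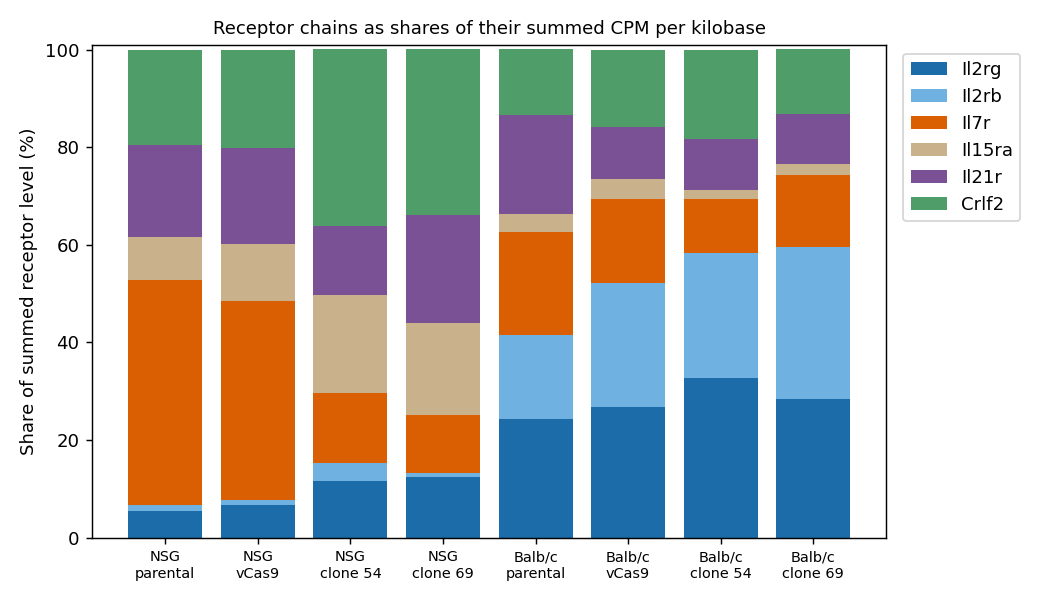
Share of each of the 6 receptor chains in their summed CPM per kilobase, in percent, 1 bar per library. Il2rg and Il2rb together form the smallest part in NSG wild-type libraries, where Il7r takes 46.0% and 40.7%, and the largest part in Balb/c knockout libraries.

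The effect of CD95 loss was then compared within each host. In NSG tumors 0 of 10 genes passed by edgeR, against 0.0131% of all genes, 3 had an unadjusted p-value under 0.05, against 14.0%, and DESeq2 called 1, against 2.41% of the genes it gave an adjusted p-value. The largest difference was in Il7r, with 95.4 and 77.9 CPM in wild type and 18 and 12.1 CPM in knockout, a log2 fold change of -2.53 (SE 0.27, adjusted p = 0.08 by edgeR; 95% interval -3.16 to -1.89). Its adjusted p-value was 3.45e-13 with DESeq2, 0.0425 with total-count scaling and 0.000436 without the low-count filter, and ranged up to 0.667 when 1 library was left out. Il21r stood at -0.94 (SE 0.36, adjusted p = 0.321 by edgeR) with no overlap, and Tslp at 1.49 (SE 0.62, adjusted p-value 0.344) with overlap. Leaving out clone 54 took the Tslp value to 0.06. T cell marker sums were 11.3 and 12.3 CPM in NSG wild-type and 5.78 and 8.06 CPM in NSG knockout tumors, and macrophage sums over 6 genes 2113 and 2081 CPM against 1170 and 1483 CPM. Epithelial sums were 1012 and 1216 CPM in NSG wild-type and 2348 and 1719 CPM in NSG knockout tumors, and fibroblast sums 14410 and 20840 against 27949 and 23788 CPM. Dendritic sums were 138 and 130 against 117 and 88.7 CPM, neutrophil sums 1517 and 2149 against 3801 and 2818 CPM, and mast cell and eosinophil sums over 6 genes 49.4 and 71.9 against 115 and 149 CPM. The part of these lists in the Il7r, Il21r and Tslp values was not tested. The remaining 7 genes had log2 fold changes between -0.80 for Il7 and 0.18 for Il2rg.

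In Balb/c tumors 0 of 10 genes passed by edgeR, against 0.176% of all genes, 3 had an unadjusted p-value under 0.05, against 30.9%, and DESeq2 called 3, against 15.0%. Il15ra had a log2 fold change of -0.82 (SE 0.20, adjusted p = 0.0613 by edgeR), Il7 of -1.58 (SE 0.39, adjusted p-value 0.0624) and Tslp of -1.95 (SE 0.69, adjusted p-value 0.108). All 3 were called by DESeq2, with adjusted p-values of 0.0113, 0.0215 and 0.0125. Il7 had 5.78 and 3.47 CPM in wild type and 1.75 and 1.31 CPM in knockout, from 68 and 50 against 33 and 18 counts. In 6 of the 10 genes, Il7r, Il15ra, Jak3, Il7, Il15 and Tslp, both knockout libraries lay below both wild-type libraries, as did 29.3% of all genes tested. Il2rg and Il2rb stood higher in knockout, with log2 fold changes of 0.41 (SE 0.18, adjusted p = 0.173 by edgeR) and 0.57 (SE 0.41, adjusted p-value 0.367). Without clone 69 the Il2rg value was 0.61 (adjusted p-value 0.0366), and without clone 54 it was 0.08 (adjusted p-value 0.818). T cell marker sums were 566 and 446 CPM in wild type and 513 and 513 CPM in knockout, NK sums 145 and 224 against 271 and 235 CPM, and macrophage sums 1664 and 1988 against 7278 and 3227 CPM. Neutrophil sums over 5 genes were lower in knockout, at 7225 and 5572 against 752 and 2418 CPM, as were B cell sums, at 177 and 36.9 against 7.67 and 11.7 CPM. Fibroblast sums were 10536 and 6904 against 8617 and 3177 CPM, and epithelial sums 651 and 1527 against 569 and 2848 CPM. The part of these lists in the gene values was not tested.

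**Figure D4:**
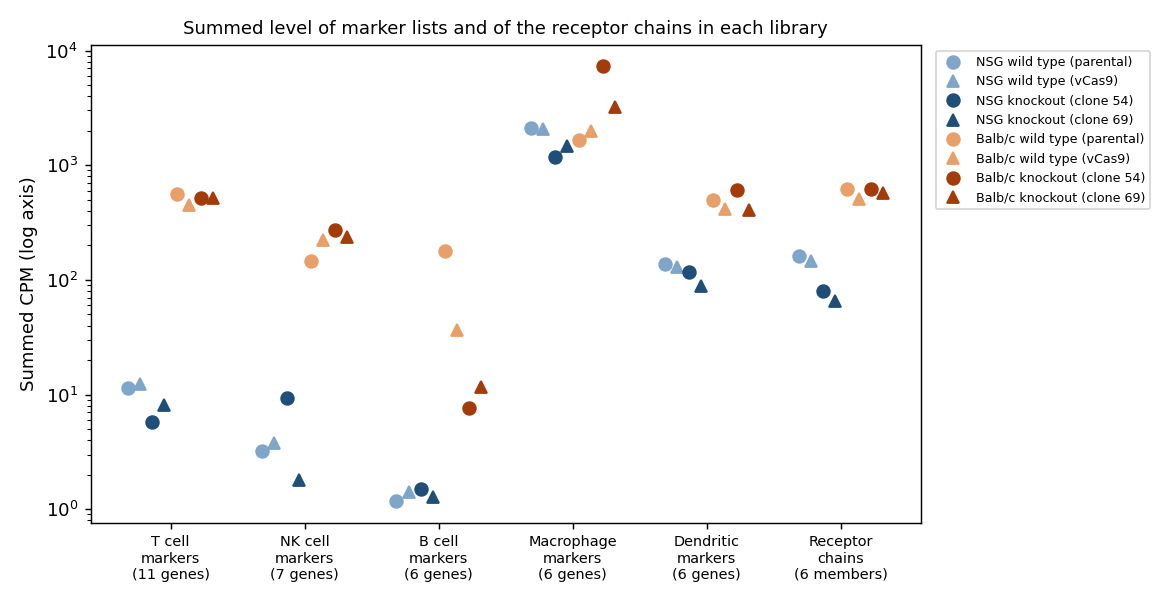
Summed CPM on a log axis of 5 marker lists and of the 6 receptor chains, 1 point per library, colored by group. T, NK and B cell sums are lowest in the 4 NSG libraries, and macrophage sums are highest for the 2 knockout tumors in Balb/c, at 7278 and 3227 CPM.

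An interaction term then asked if CD95 loss acted differently in each host. By edgeR 0 of 10 genes passed, against 0% of all genes, 3 had an unadjusted p-value under 0.05, against 22.5%, and DESeq2 called 2, against 6.90%. For Il7r the difference (Balb/c minus NSG) was 2.06 (SE 0.37, adjusted p = 0.0794 by edgeR), for Tslp -3.44 (SE 0.93, adjusted p-value 0.112) and for Il15ra -0.96 (SE 0.29, adjusted p-value 0.129). DESeq2 called Il7r and Tslp, with adjusted p-values of 0.000324 and 0.00202. When each line served as its own replicate block they were 0.246 for Il7r and 0.257 for Tslp by edgeR. Without the clone 69 library in Balb/c the value for Il7r was 1.96 (adjusted p-value 0.0224). The Tslp value ranged from -4.14 without the clone 69 library in NSG to -2.01 without that of clone 54, and was not called in either case.

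The other genes of the pathway were 21 genes outside the list, also chosen with earlier results of these data known. Of these, 19 passed the low-count filter. In wild-type tumors 18 rose in Balb/c, against 15.3% of all genes, and none fell. In knockout tumors 13 rose, against 15.7%, and none fell. Both counts include Il21, and the wild-type count also Il9r. In NSG libraries Il21 had 0 counts and Il9r at most 4. Both passed the filter through Balb/c, so neither could have been called lower. With Il21 set at its lower bound, their median log2 fold change was 1.29 in wild-type and 1.02 in knockout tumors. For the knockout effect in NSG tumors 0 of 19 passed by edgeR, against 0.0131% of all genes; unadjusted p-values lay under 0.05 for 2, against 14.0%. In Balb/c tumors 0 passed, against 0.176%, and at the unadjusted threshold there were 3, against 30.9%. DESeq2 called 0 of these genes in either host, against 2.41% in NSG and 15.0% in Balb/c of the genes it gave an adjusted p-value.

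Among receptors, Il2ra, the high-affinity interleukin 2 chain of activated and regulatory T cells, went from 2.91 and 1.08 CPM in NSG wild-type to 35.5 and 41.5 CPM in the same lines in Balb/c, a log2 fold change of 4.24 (SE 0.42, adjusted p = 0.00109 by edgeR). In knockout tumors it went from 0.749 and 0.398 to 33.2 and 42.7 CPM, a log2 fold change of 6.04 (SE 0.50, adjusted p-value 0.000359). Il4ra, the interleukin 4 receptor chain, was at 333 to 409 CPM in NSG and 532 to 665 CPM in Balb/c libraries and rose by 0.75 (SE 0.21, adjusted p-value 0.0308) and 0.64 (SE 0.21, adjusted p-value 0.0496) on the log2 scale. Il13ra1, which pairs with Il4ra without the common gamma chain, passed in neither genotype, with log2 fold changes of 0.26 (SE 0.20) and -0.43 (SE 0.20). Il9r had 0 and 4 counts in each NSG group, 29 and 22 in Balb/c wild-type and 14 and 12 in Balb/c knockout tumors. It was called higher in Balb/c by edgeR in wild-type and not in knockout tumors. Its NSG means lay below the 3-count floor and it passed the filter through Balb/c, so no exact fold is given.

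Of the other ligands, Il4, made by type 2 T cells and mast cells, was at 0.428 to 1.45 CPM in NSG and 16.1 to 31.5 CPM in Balb/c libraries. It rose by 3.78 (SE 0.46, adjusted p = 0.00227 by edgeR) in wild-type and 4.85 (SE 0.51, adjusted p-value 0.000728) in knockout tumors. Of the mast cell and eosinophil list, Cpa3 and Mcpt4 were lower in Balb/c in both genotypes, and Siglecf, Ccr3 and Epx higher. Kit was called higher in wild-type tumors only. Their part in the Il4 rise was not tested. Il21 had 0 counts in all NSG libraries, 7 and 6 counts in Balb/c wild-type and 55 and 31 counts in Balb/c knockout tumors. Against a floor of 3 counts per library, its level in Balb/c was at least 2.21-fold higher in wild-type and 8.35-fold in knockout tumors. Il21 passed the low-count filter through Balb/c alone, so its host calls carry no separate weight. Its knockout log2 fold change in Balb/c was 2.35 (SE 0.55, adjusted p = 0.0666 by edgeR) and was not called. Since its 55 and 31 counts there carried it past the low-count filter, the filter favoured this direction. Il2 had 0 counts in every NSG library and 1 to 7 counts in Balb/c, Il9 had 0 to 6 counts, and neither was tested.

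In wild-type tumors 5 of 5 kinase and STAT genes and 8 of 8 feedback and survival genes rose in Balb/c, against 15.3% of all genes, and in knockout tumors 3 of 5 and 6 of 8, against 15.7%. Cish, a feedback inhibitor induced by STAT5, was at 13 to 43.4 CPM in NSG and 84.6 to 226 CPM in Balb/c libraries, with log2 fold changes of 2.37 (SE 0.55, adjusted p = 0.017 by edgeR) and 2.22 (SE 0.55, adjusted p-value 0.0186) in wild-type and knockout tumors. Pim2, a survival kinase, rose by 2.45 (SE 0.42, adjusted p-value 0.00673) and 2.82 (SE 0.44, adjusted p-value 0.00314). Stat5b rose by 1.58 (SE 0.25, adjusted p = 0.00532 by edgeR) in wild-type and 0.82 (SE 0.25, adjusted p-value 0.0382) in knockout tumors. Socs1, a JAK inhibitor, rose by 1.4 (SE 0.27, adjusted p = 0.00943 by edgeR) in wild-type and 2.69 (SE 0.29, adjusted p-value 0.000792) in knockout tumors. In wild-type tumors the neutrophil marker sum also went from 1517 and 2149 CPM in NSG to 7225 and 5572 CPM in Balb/c, and in knockout tumors from 3801 and 2818 to 752 and 2418 CPM. T, NK, B cell and dendritic sums, and those of mast cell and eosinophil markers, were higher in every Balb/c library than in any NSG library. The last were at 49.4 to 149 CPM in NSG and 293 to 589 CPM in Balb/c, although Cpa3 and Mcpt4 of that list were lower in Balb/c. The part of these lists in the changes of the other pathway genes was not tested.

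**Figure D5:**
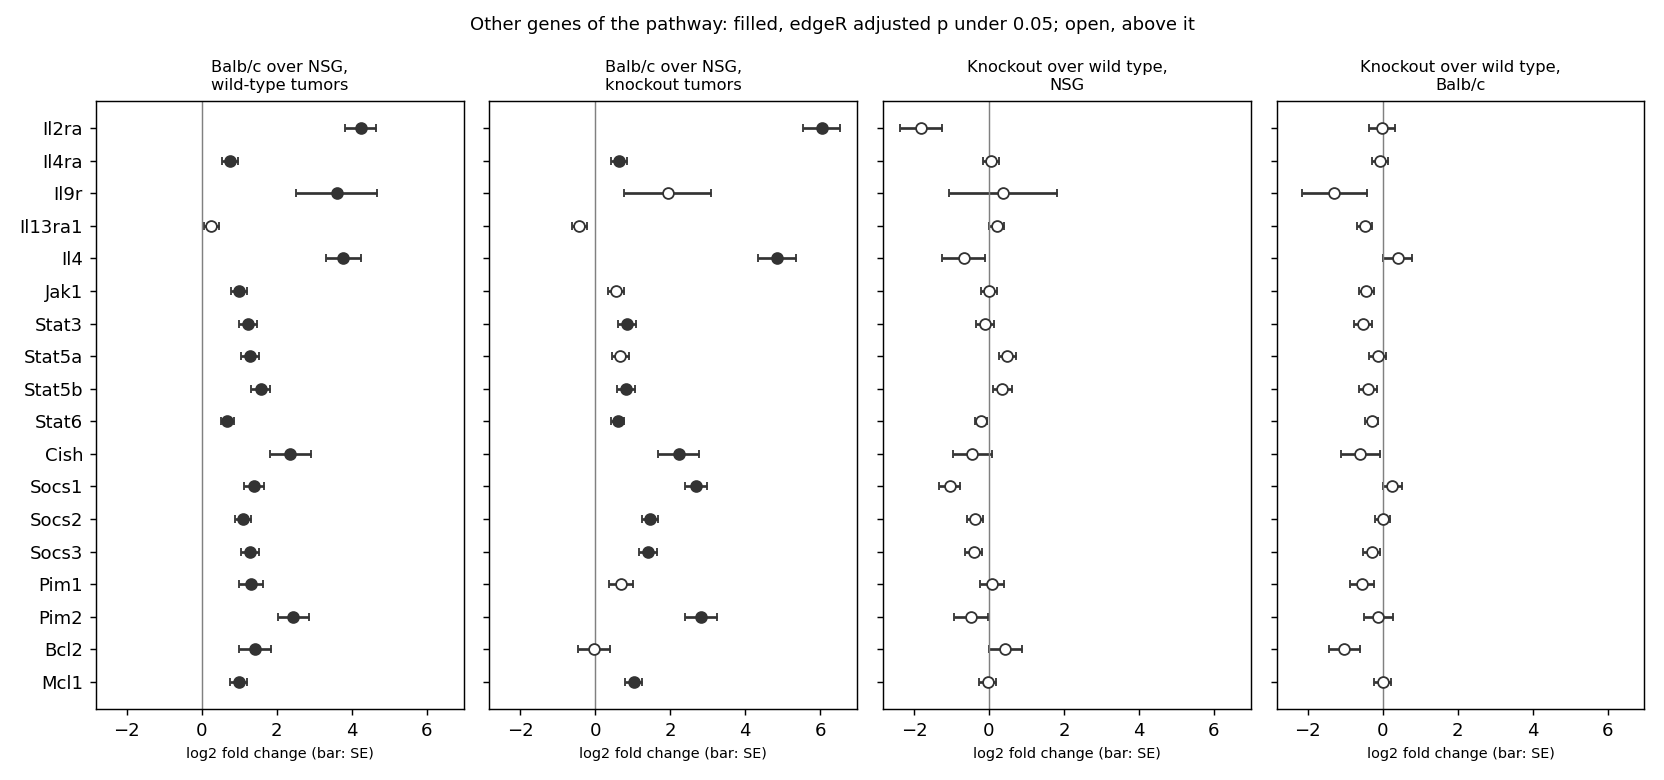
Log2 fold change with its standard error for 18 other genes of the pathway in the 4 comparisons; filled points have an edgeR adjusted p-value under 0.05. Among the genes shown, Il2ra and Il4 lie farthest to the right in the host comparisons, and no point is filled for either knockout comparison. The points of Il9r rest on 0 and 4 counts in each NSG group and are not exact.

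Genes were also ranked by how closely their centred log2 CPM profile over the 8 libraries followed that of a member, using the root mean square difference. Nearest to Il2rg among 15309 genes were Ccr8 (0.229), Pglyrp2 (0.253), Gimap7 (0.262), Gbp4 (0.29) and Ctsw (0.294). Ccr8, Pglyrp2 and Gimap7 had 0 or 1 count in each NSG library, so their distance from Il2rg is set in part by the 0.5 CPM added before the log. Il2rb ranked 394th at 1.16, Crlf2 481st at 1.23 and Il21r 493rd at 1.23. Nearest to Il15 were Sp4 (0.133), Fscn2 (0.145), Fas (0.164), Taf4b (0.165) and Hbp1 (0.166). Nearest to Il7 were Mir1192, Gm8451, Mdn1, Mir186 and Cacna1b, at 0.257 to 0.284, of which Mdn1 alone exceeded 4 CPM in any library. This measure is a description over libraries that share host and line.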

How the data were processed

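RNA of 8 tumor libraries was sequenced after extraction with a miRNeasy kit and DNase digestion, per the labels' protocols. The authors deposited raw counts per Ensembl gene, 1 library per file. The submitters' processing notes name cutadapt 1.13, STAR, HTSeq 0.6.1p1 and DESeq2 with the builds mm10 and hg19, without roles; annotation, strand setting and filters are not given in the sources used here. Symbols were found for 24942 of 25006 identifiers. Positions and exon lengths came from GENCODE M21 (GRCm38, the assembly of mm10). Insl3, which overlaps Jak3, had 1 to 14 counts, and 4930455D15Rik, antisense to Tslp, 0 to 3. Gm20489, which overlaps Il2rg on the same strand, and Gm16685, antisense to Il7, were not found among the symbols. Their part in the counts of Il2rg and Il7 is unknown.

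Counts were fitted in R 4.3.3 with edgeR 4.0.16 (TMM, filterByExpr, glmQLFit, glmQLFTest), all 8 libraries in 1 model of 4 group means with 4 residual degrees of freedom; 15310 genes were tested and p-values adjusted by Benjamini and Hochberg over all of them, with a threshold of 0.05. Standard errors came from the fold change and the F statistic. With 2 different lines a group, p-values measure the spread between these samples. DESeq2 1.42.0, other scalings, filters and left-out libraries were alternatives. Each line was grown in both hosts, which pairs libraries by cell line; the line differences in NSG and Balb/c correlated across genes with r of 0.081 for wild-type lines and -0.384 for the clones.

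The members and lists were chosen with earlier results of these data known. Named genes were all members, the other receptors and ligands, up to 3 further pathway genes per direction and comparison with the largest change past the threshold, the 5 nearest profiles to Il2rg, Il7 and Il15, and a few markers, Ncr1 among them. Profiles used log2 of CPM plus 0.5.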

Additional observations from a re-analysis of the deposited data

How the results depend on the processing

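For the host comparison in wild-type tumors 5 genes were called; fitting only the groups compared called 8, adding Il15ra, Jak3 and Il15, and leaving out 1 library gave 2 to 6. Calls over all genes moved too, from 4825 to 6838 in the fit of the groups compared and to between 815 and 6333 with 1 library left out. Leaving out NSG wild-type replicate 1 lost Il7r, Il21r and Crlf2 (2 called), replicate 2 lost Il7r and Il21r (3 called), and Balb/c wild-type replicate 1 lost Il7r. In knockout tumors 6 were called in every setting run. For the knockout effect in NSG, where 0 were called, total counts, no filter and DESeq2 each called 1 (Il7r), and leaving out 1 library called 0. In Balb/c, no filter and DESeq2 each called 3 and leaving out 1 library 0 to 2. For the difference between hosts, no filter and DESeq2 each called 2 and leaving out 1 library 0 to 1. Over all genes, DESeq2 called 339 in NSG against 2 by edgeR, 2161 against 27 in Balb/c and 968 against 0 for the difference, no filter 133, 1774 and 674, and RLE 94 in Balb/c. The cause was not tested.

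When each line served as its own replicate block, 4 genes were called for the host comparison in wild-type tumors (Il7r lost), 6 in knockout tumors and 0 for the difference; over all genes the block took the calls from 4825 to 2073 and from 4757 to 2878. It changed no other call among the 10 genes. Knockout effects could not be blocked, since lines lie within genotypes. The clones correlated negatively between hosts, and a crossed pairing, chosen after seeing the data, called 6 of the 10 and 5436 of all genes.

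Signs that turned when 1 library was left out were all of values not called. Knockout effects in NSG ranged from -1.44 to 0.94 for Il2rb, -0.06 to 0.31 for Il15ra, -0.17 to 0.20 for Crlf2 (also -0.01), -0.18 to 0.28 for Jak3 and -0.85 to 0.20 for Il15. In Balb/c they ranged from -1.03 to 0.18 for Il21r and -0.23 to 0.56 for Crlf2. Differences between hosts ranged from -0.11 to 0.43 for Il2rg, -0.37 to 2.01 for Il2rb, -0.09 to 1.12 for Il21r, -0.27 to 0.53 for Crlf2 and -0.72 to 0.32 for Il15. Where an arm held 1 library, it was assumed to vary like the other groups. Il7 and the NSG values of Il2rb rest on few counts.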
